A study of Mus musculus with 2 samples.

Results

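The genes described here encode the subunits of the BAF chromatin remodelling complex that are exchanged when a neural progenitor becomes a neuron, together with the 2 alternative ATPases. They were chosen by symbol as 10 rows of the 20373 rows in each expression table. They comprise 4 progenitor subunit genes (Actl6a, Phf10, Dpf2 and Ss18), 4 neuronal subunit genes (Actl6b, Dpf1, Dpf3 and Ss18l1) and the ATPase genes Smarca2 and Smarca4. All 10 symbols were found once in each table, and all 10 passed the filter on low values (at least 1 CPM, reads per 1000000, in at least 1 library). RNA was sequenced from neurons and from neural progenitor cells (NPCs), with 1 library of each, both sorted by fluorescence from mouse cortex at embryonic day 15.5. Both libraries came from embryos positive for GFP and RFP, from crosses of Nestin-GFP heterozygotes with DCX-mRFP homozygotes. Cells with both colours were taken as neurons and green cells as NPCs. The strain background is not given in the sources used here, nor is the number of embryos pooled. The gates rest on reporter proteins driven by regulatory sequences of Nestin and doublecortin, so a cell that inherits green protein and has begun to make red protein is counted as a neuron.

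BAF, the mammalian SWI/SNF complex, uses ATP to slide and evict nucleosomes. Dividing neural progenitors assemble it with the actin-related protein Actl6a, the PHD finger protein Phf10 and Ss18. As cells leave the cell cycle, these are replaced by the homologues Actl6b, Dpf1 or Dpf3, and Ss18l1. In mouse, Actl6b and Ss18l1 are needed for the outgrowth of dendrites, and the microRNAs miR-9* (miR-9-3p) and miR-124 repress Actl6a in neurons. The repressor REST keeps those microRNAs low in progenitors.

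Sequences are shown for the actin-related pair, which is the best known switch, and for Dpf1, the gene with the highest neuron to NPC ratio of the 10. The stretches below are the 250 bases upstream of the RefSeq start of each gene on build GRCm38.p6, plus strand. Capitals mark the GC box GGGCGG and the CCAAT box CCAAT, each searched on both strands.
Actl6b, chr5:137553296-137553545: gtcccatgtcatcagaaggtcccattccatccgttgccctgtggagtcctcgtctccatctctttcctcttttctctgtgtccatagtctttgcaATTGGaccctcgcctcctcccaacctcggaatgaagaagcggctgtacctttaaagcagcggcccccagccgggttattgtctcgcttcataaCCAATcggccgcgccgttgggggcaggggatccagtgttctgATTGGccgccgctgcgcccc
Actl6a, chr3:32708296-32708545: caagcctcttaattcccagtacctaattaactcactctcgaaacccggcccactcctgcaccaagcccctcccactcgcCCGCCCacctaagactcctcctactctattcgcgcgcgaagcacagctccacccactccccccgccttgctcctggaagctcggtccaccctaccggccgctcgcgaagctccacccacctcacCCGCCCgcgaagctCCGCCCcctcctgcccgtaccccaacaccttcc
Dpf1, chr7:29303755-29304004: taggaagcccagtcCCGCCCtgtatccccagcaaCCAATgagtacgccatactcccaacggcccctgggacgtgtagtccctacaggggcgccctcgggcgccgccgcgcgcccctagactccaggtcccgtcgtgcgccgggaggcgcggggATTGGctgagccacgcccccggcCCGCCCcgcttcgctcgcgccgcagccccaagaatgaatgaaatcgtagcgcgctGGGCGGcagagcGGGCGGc
The Actl6b stretch holds 3 CCAAT boxes and 0 GC boxes, the Actl6a stretch 3 GC boxes and 0 CCAAT boxes, and the Dpf1 stretch 4 GC boxes and 2 CCAAT boxes. Of 32841 RefSeq promoter stretches of the same length, 33.9% hold a CCAAT box, 32.7% a GC box and 12.4% the TATA box TATAAA, which none of the 3 stretches holds. The 3 stretches hold 15, 19 and 31 CpG dinucleotides in the order shown, against a median of 6 over all promoters. These letters describe the windows and say nothing of which factors bind there.

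The mature miR-9-3p, from RefSeq, is shown with its seed (bases 2 to 8) in capitals, followed by the matches to that seed in the 3' untranslated regions of members. Matches come from GENCODE M21 transcripts on GRCm38, plus strand, and capitals mark the bases complementary to the seed.
miR-9-3p: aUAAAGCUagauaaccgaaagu
Actl6a, chr3:32726630-32726650: caacgtctgtAGCTTTAgtac
Smarca2, chr19:26777492-26777512: atctagaactAGCTTTAgggt
The match in Actl6a starts at base 38 of a region of 371 bases, and that in Smarca2 at base 132 of 951. The other 8 members held 0 matches, and 11.4% of 20445 protein-coding genes with a 3' untranslated region of at least 50 bases held at least 1. The search used 1 transcript per gene, the longest complete coding one. For Phf10 and Actl6b it covered only 90 and 196 bases, beside a median of 967 over those genes, so other transcripts may hold matches. The microRNA genes themselves were not analysed here.

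Recovered reads summed over all rows to 23312054 for neurons and 26346226 for NPCs. Levels are in CPM with the libraries scaled as deposited, and a ratio is the neuron CPM over the NPC CPM. The 95% interval beside a ratio covers counting error only. With 1 library per group there was no replicate check and no test of the cell types. In bulk RNA, fewer cells of a type and less RNA per cell cannot be told apart.

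Progenitor and neuron markers were read first, because the sorted libraries share much RNA. Nes, the filament gene behind the green reporter, was at 189.5 CPM in neurons and 409 CPM in NPCs, and Dcx, behind the red reporter, at 3294 CPM in neurons and 2522 CPM in NPCs. All 10 radial glia markers, 8 of 8 intermediate progenitor markers and 8 of 8 dividing cell markers were lower in the neuron library, with median log2 ratios of -1.57, -1.48 and -1.48 after 1 CPM was added to both values. Of 12 postmitotic neuron markers 11 were higher there, with a median of 0.88. The exception was Rbfox3 (NeuN), picked out after its values were seen, at 99.6 CPM in neurons and 107 CPM in NPCs. Summed over the list, neuron markers were at 10855 CPM in neurons and 6833 CPM in NPCs, and radial glia markers at 753 CPM in neurons and 2169.5 CPM in NPCs, so that transcripts of both kinds were abundant in both libraries. Other cell types also differed in the same comparison. Summed microglia markers (8 of 8 higher in neurons) were at 120.3 CPM in neurons and 27.6 CPM in NPCs, and Cajal-Retzius markers (5 of 5 higher) at 458 CPM in neurons and 99.9 CPM in NPCs. Most of the Cajal-Retzius sum was Reln, at 434 CPM in neurons and 95.8 CPM in NPCs. For Ebf2 the ratio was 1.28, with an interval that held 1 (0.708 to 2.33). Pericyte markers (7 of 7 lower) were at 9.66 CPM in neurons and 204 CPM in NPCs. Endothelial markers (7 of 7 lower) were at 3.08 CPM in neurons and 19.6 CPM in NPCs, and oligodendrocyte lineage markers (5 of 5 lower) at 1.98 CPM in neurons and 51.5 CPM in NPCs. No marker of these lists was at 0 reads in either library. Interneuron markers were at 217 CPM in neurons and 303 CPM in NPCs, with 7 of 7 lower. Red cell genes were not summed, because Hba-a1 and Hba-a2 held identical values, as did Hbb-b1 and Hbb-b2. Hba-a1 was at 56.9 CPM in neurons and 60.7 CPM in NPCs. The part of these other cells in the BAF values was not tested.

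The 4 neuronal subunit genes were all higher in the neuron library, by ratios from 1.61 to 2.44. The progenitor subunit genes differed less, with ratios from 0.668 to 1.04 and with 3 of 4 lower in neurons. With 1 CPM added to both values, 2 of 10 members were at least 2-fold higher in neurons, Dpf1 and Actl6b, where 3.85% of the 12693 genes past the filter were, and 0 of 10 were at least 2-fold lower, where 6.73% of genes were. At 1.5-fold, 5 of 10 were higher in neurons (the 4 neuronal subunit genes and Smarca2), against 10.6% of genes, and 0 of 10 were lower, against 13.1%. Either way, 5 of 10 were 1.5-fold apart, against 23.7% of genes, and 2 of 10 were 2-fold apart, against 10.6%. The median log2 ratio on this scale was 0.96 for the neuronal and -0.33 for the progenitor subunit genes, beside -0.0049 for all genes past the filter.

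**Figure D1:**
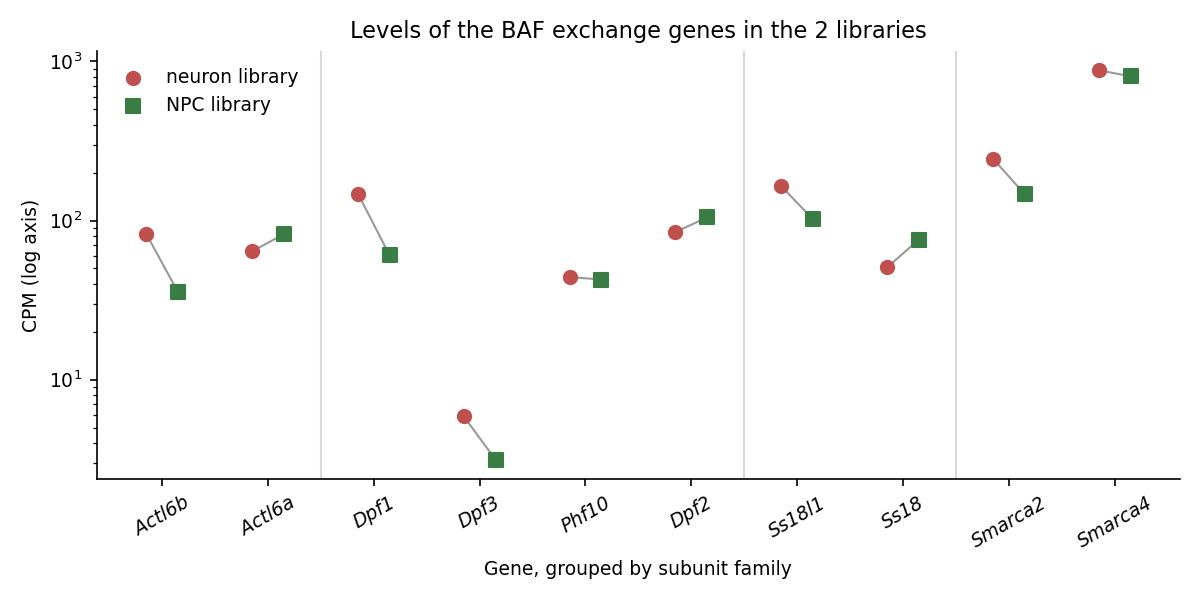
Level of each BAF exchange gene in CPM on a log axis, in the neuron library (red circles, left of each pair) and the NPC library (green squares), with 1 library per group and no error bar. Smarca4 is highest at 880.0 CPM in neurons and 805 CPM in NPCs, and Dpf3 is lowest at 5.88 and 3.15 CPM in the same order. Lines rise to the left for the 4 neuronal subunit genes, both ATPases and, slightly, Phf10.

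The actin-related subunits differed in opposite directions. Actl6b, the neuronal form, was at 82.5 CPM in neurons and 35.6 CPM in NPCs, a ratio of 2.32 (2.15 to 2.51). Actl6a, the progenitor form, which is also a subunit of the INO80, SRCAP and TIP60 complexes, was at 64.1 CPM in neurons and 82.1 CPM in NPCs, a ratio of 0.781 (0.730 to 0.834). Actl6b was thus the higher of the pair in the neuron library and Actl6a in the NPC library, and the gain of Actl6b was larger than the drop of Actl6a. The ratio of Actl6b to Actl6a was 2.97 times as high in neurons as in NPCs (exact conditional interval 2.68 to 3.30). This ratio of ratios does not depend on the scaling between the libraries. Nor does it depend on gene length if each gene used the same transcripts in both, which was not measured. Per kilobase of the longest coding transcript, Actl6b made up 61.9% of the pair in neurons and 35.4% in NPCs. Per kilobase of coding sequence its share was 56.5% in neurons and 30.4% in NPCs, so the order of the pair turned between the libraries on both lengths. The Actl6a transcript, which carries the miR-9-3p match printed above, remained at 78.1% of its NPC level in the neuron library. Exons of Actl6a and of Mrpl47, a mitochondrial ribosome gene on the opposite strand, overlap by 452 bases on GRCm38. Mrpl47 was at 15.6 CPM in neurons and 15.3 CPM in NPCs, and since counting by strand is not stated, reads in the overlap cannot be assigned.

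The PHD finger family has 4 genes, whose proteins read modified histone tails. Dpf1, a neuronal form, was at 148 CPM in neurons and 60.4 CPM in NPCs, a ratio of 2.44 (2.30 to 2.59). Dpf3, the other neuronal form, known also for a role in heart and muscle development, was at 5.88 CPM in neurons and 3.15 CPM in NPCs, a ratio of 1.87 (1.41 to 2.48). Dpf3 rested on 134 reads in neurons and 85 in NPCs, the fewest of any member, and its interval is the widest. Dpf2, which is expressed in most tissues, was at 84.7 CPM in neurons and 105 CPM in NPCs, a ratio of 0.809 (0.763 to 0.857). Phf10, which in mouse sustains progenitor division, was at 44.2 CPM in neurons and 42.6 CPM in NPCs. Its ratio of 1.04 (0.952 to 1.13) was the single one among the 10 whose interval held 1, so no difference was detectable at this depth. Exons of Phf10 overlap those of 1600012H06Rik on the opposite strand by 470 bases, and that gene was at 31.4 CPM in neurons and 34.5 CPM in NPCs. Shorter overlaps, of 40 to 99 bases with noncoding genes, are annotated for Dpf1, Dpf2, Smarca2 and Smarca4.

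Within this family Dpf1 gained on both progenitor forms. The ratio of Dpf1 to Dpf2 was 3.02 times as high in neurons (2.78 to 3.28), and that of Dpf1 to Phf10 2.36 times (2.12 to 2.62). Dpf3 gained 2.31 times on Dpf2 (1.73 to 3.08) and 1.80 times on Phf10 (1.34 to 2.42). Per kilobase of transcript, Dpf1 took 54.2% of the family in neurons and 31.0% in NPCs. Dpf3 took 1.59% in neurons and 1.19% in NPCs, so the neuronal share of the family was nearly all Dpf1 in both libraries. Dpf2 took 21.7% in neurons and 37.5% in NPCs, and Phf10 22.5% in neurons and 30.4% in NPCs. Per kilobase of coding sequence Phf10 took 12.7% in neurons and 16.6% in NPCs, and Dpf2 30.9% in neurons and 51.8% in NPCs, so the order of Phf10 against Dpf2 in the neuron library depends on the length used.

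**Figure D2:**
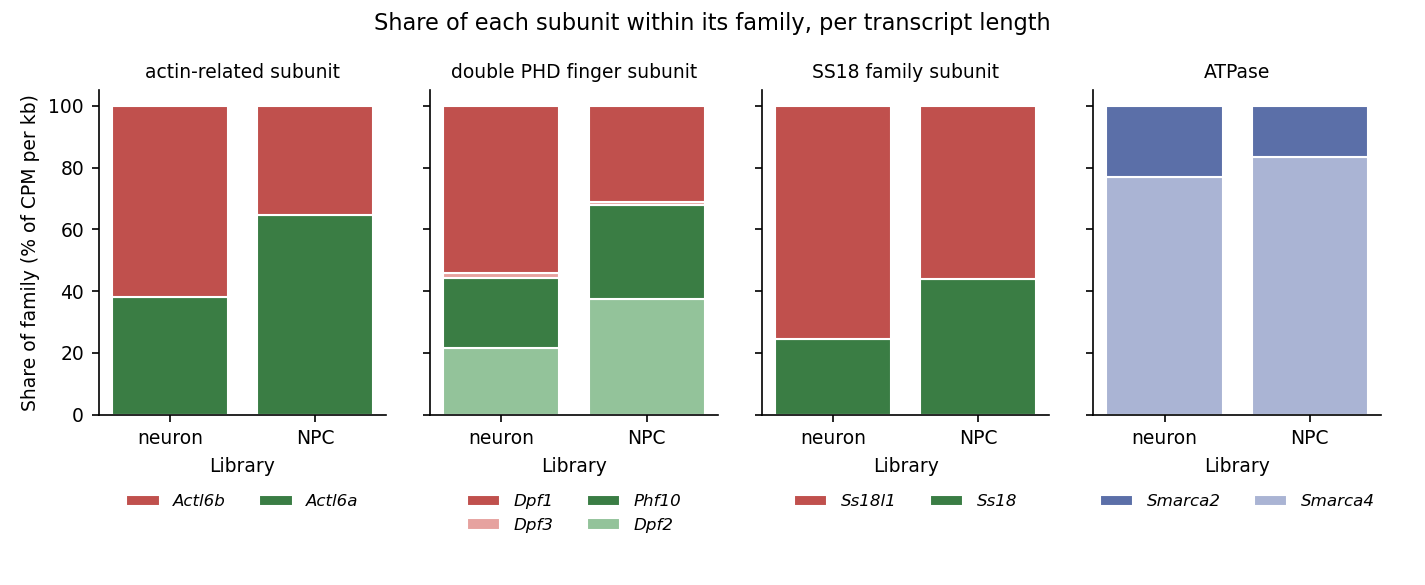
Share of each gene in the summed CPM per kilobase of transcript of its family (y axis, percent), in the neuron (left bar) and NPC library (right bar) for the 4 families. Actl6b takes 61.9% of its pair in neurons and 35.4% in NPCs, Dpf1 54.2% and 31.0% of its family, and Ss18l1 75.6% and 56.2%, while Smarca4 keeps 77.0% and 83.6% of the ATPase pair in the same order.

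The SS18 family contributed the member with the lowest ratio. Ss18l1, also called CREST, a calcium-responsive transactivator that recruits CBP, was at 164 CPM in neurons and 102 CPM in NPCs, a ratio of 1.61 (1.54 to 1.70). Ss18, its progenitor homologue, was at 50.7 CPM in neurons and 76.0 CPM in NPCs, a ratio of 0.668 (0.621 to 0.718). The ratio of Ss18l1 to Ss18 was 2.42 times as high in neurons (2.21 to 2.64). Unlike the actin-related pair, the neuronal form was the more abundant one in both libraries. Per kilobase of transcript Ss18l1 took 75.6% of the pair in neurons and 56.2% in NPCs, and per kilobase of coding sequence 73.5% in neurons and 53.4% in NPCs. A processed pseudogene, Gm1826, matches 391 bases of the Ss18 transcript at 98.0% identity, and how reads aligning to several places were treated is not given in the sources used here.

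The ATPases are alternatives within a complex, and Smarca2 (BRM) is known to gain on Smarca4 (BRG1) in differentiated cells. Smarca2 was at 245 CPM in neurons and 146 CPM in NPCs, a ratio of 1.67 (1.60 to 1.74). Smarca4 was at 880.0 CPM in neurons and 805 CPM in NPCs, a ratio of 1.09 (1.07 to 1.11). The ratio of Smarca2 to Smarca4 was 1.53 times as high in neurons (1.46 to 1.60), the smallest shift of the 7 pairs, and both genes were higher in the neuron library. Smarca4 stayed the main ATPase transcript, at 77.0% of the pair per kilobase in neurons and 83.6% in NPCs. Smarca2, which carries the other miR-9-3p match printed above, was higher in neurons, where Actl6a was lower. The 2 members with a match lay on opposite sides of equality, and any part of the microRNA in these values was not tested.

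**Figure D3:**
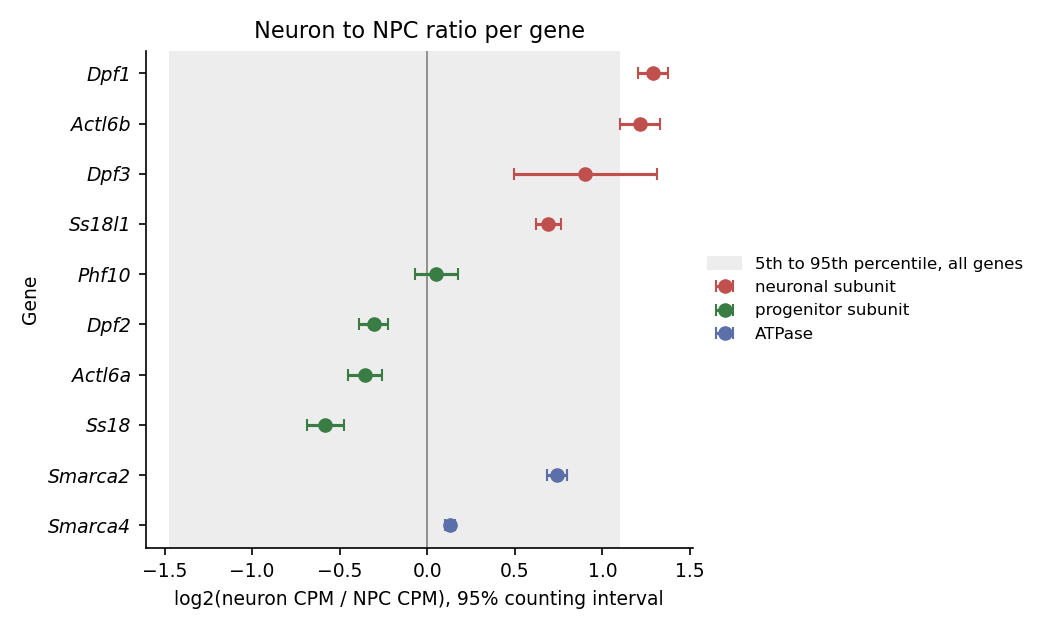
Log2 of the neuron CPM over the NPC CPM for each gene (x axis), with 95% counting intervals; neuronal subunits are red, progenitor subunits green and ATPases blue, and the grey band spans the 5th to 95th percentile of all genes past the filter with reads in both libraries (-1.47 to 1.09). Dpf1 at 1.29 and Actl6b at 1.21 lie beyond the band, and Phf10 at 0.05 is the gene whose interval crosses 0.

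Across the 7 pairs, the neuronal form or Smarca2 gained on its partner in 7 of 7, with ratios of ratios from 1.53 to 3.02 and with no interval reaching 1. Pairs in the PHD finger family share members, so they are not independent. In sums of CPM, scaled as deposited and not corrected for length, the neuronal side changed more. Summed over the 4 genes of each class, neuronal subunit transcripts were at 400.4 CPM in neurons and 201 CPM in NPCs, and progenitor subunit transcripts at 244 CPM in neurons and 305 CPM in NPCs. In the SS18 pair the 2 sides were close, with log2 ratios of 0.69 for Ss18l1 and -0.58 for Ss18. The split between the sides depends on the scaling. With scaling by total reads the ratios of Ss18l1 and Ss18 were 1.54 and 0.638. Per kilobase of transcript, the summed level of each family was higher in neurons. It was 83.7 in neurons and 63.2 in NPCs for the actin-related pair, 118 in neurons and 84.4 in NPCs for the PHD finger family, 50.1 in neurons and 41.7 in NPCs for the SS18 pair and 179 in neurons and 151 in NPCs for the ATPases (CPM per kilobase).

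**Figure D4:**
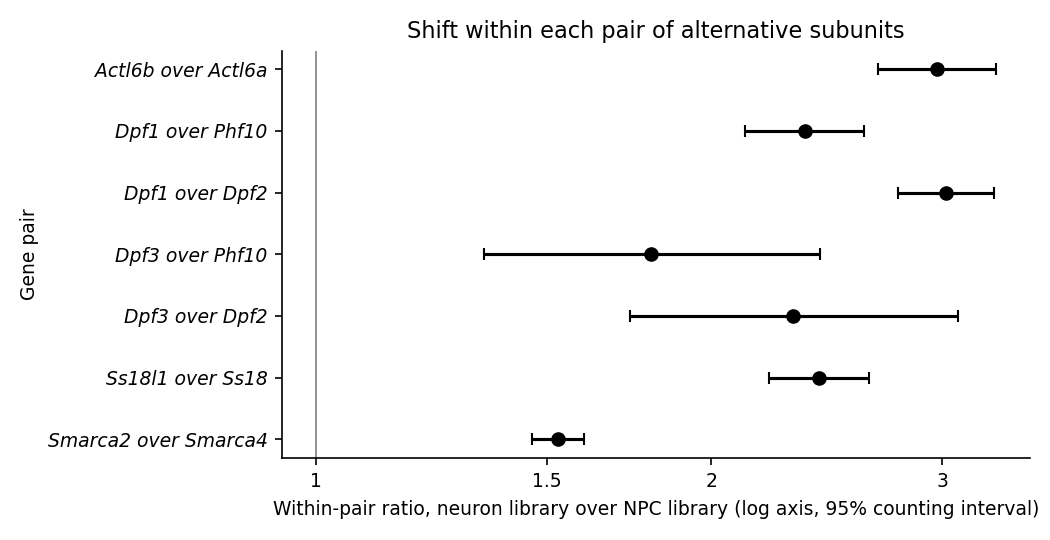
Within-pair ratio in the neuron library over that in the NPC library for 7 pairs of alternative subunits (x axis, log scale), with exact conditional 95% counting intervals. All points lie right of 1, from 1.53 for Smarca2 over Smarca4 to 3.02 for Dpf1 over Dpf2.

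Genes for the remaining BAF subunits were also read. Of 21 listed genes 20 were matched, among them the core subunits Smarcb1, Smarcc1, Smarcc2 and Smarce1 and the DNA-binding subunits Arid1a and Arid1b. Of the 20, 0 were at least 1.5-fold apart in either direction, where 23.7% of all genes past the filter were. A total of 13 were higher in neurons and 7 were lower, where 49.3% of all genes were higher, and their median log2 ratio was 0.09 on the scale with 1 CPM added. The intervals of Brd7, Bcl7b and Bcl7c held 1. Genes this near equality can change side with the scaling, and with scaling by total reads the median was 0.028. The largest ratios belonged to 3 genes with known roles in neurons. Bcl11b (Ctip2), a transcription factor of deep-layer projection neurons that copurifies with BAF, was at 522 CPM in neurons and 356 CPM in NPCs, a ratio of 1.47 (1.43 to 1.51). Smarcd3, a BAF60 subunit, was at 139 CPM in neurons and 97.9 CPM in NPCs, a ratio of 1.42 (1.35 to 1.49). Bcl11a (Ctip1) was at 577 CPM in neurons and 443 CPM in NPCs, a ratio of 1.30 (1.27 to 1.33). Among genes of the other complexes that hold Actl6a, 0 of 8 matched genes were at least 1.5-fold apart, where 23.7% of all genes were. Of these 8, 7 were lower in neurons, and the median log2 ratio was -0.12. The remaining gene, Kat5, the acetyltransferase of TIP60, was picked out after its values were seen, at 55.6 CPM in neurons and 53.3 CPM in NPCs. Its ratio was 1.04, with an interval that held 1 (0.966 to 1.12). Among the 7, the intervals of Actr5 and Actr8 held 1 too.

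Genes that act upstream of the exchange, or with Ss18l1, were lower in neurons in 8 of 8 cases, with a median log2 ratio of -0.29, beside -0.0049 for all genes past the filter, of which 49.3% were higher in neurons. Of the 8, 1 was at least 2-fold lower, where 6.73% of all genes were. This was Ctdsp1, a small phosphatase that REST recruits, at 21.1 CPM in neurons and 51.8 CPM in NPCs, a ratio of 0.407 (0.366 to 0.452). Its relative Ctdsp2, which hosts a microRNA in an intron, was at 213 CPM in neurons and 292 CPM in NPCs, a ratio of 0.729 (0.703 to 0.756). Rest itself was at 10.8 CPM in neurons and 14.4 CPM in NPCs, a ratio of 0.754 (0.640 to 0.886). The histone acetyltransferase genes Crebbp and Ep300, partners of Ss18l1, and the corepressor genes Rcor1 and Rcor2 were each within 1.5-fold.

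**Figure D5:**
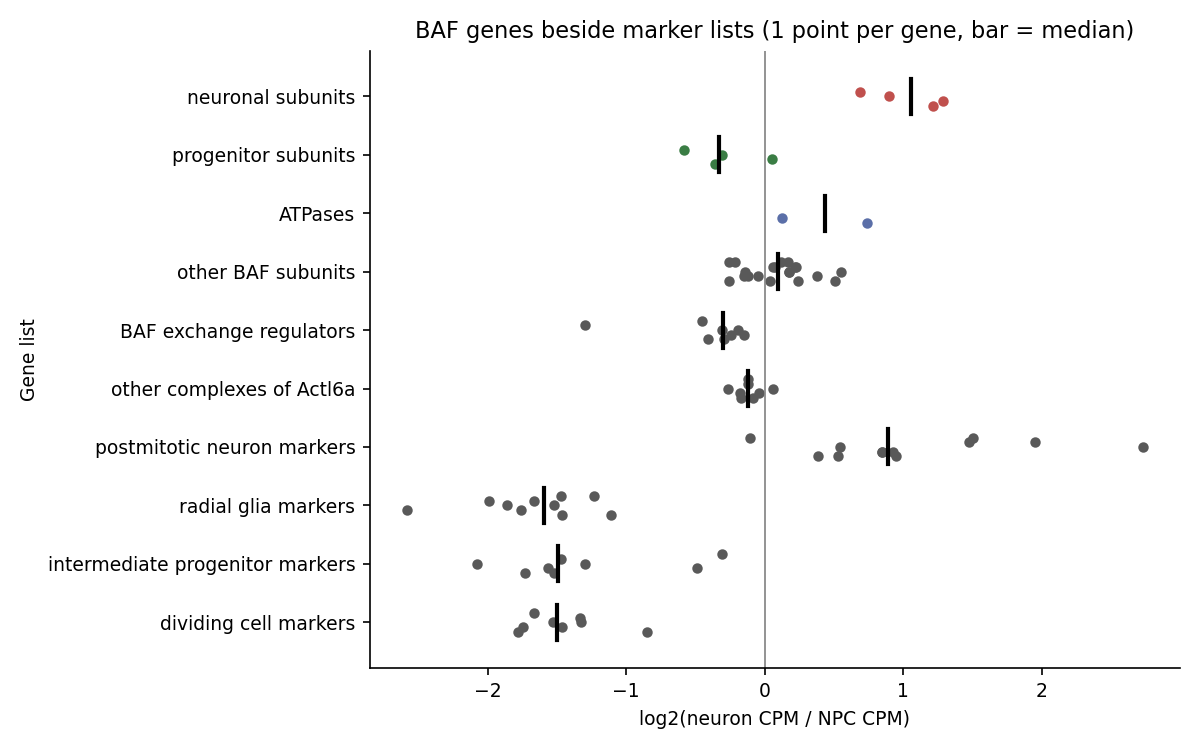
Log2 of the neuron CPM over the NPC CPM, 1 point per gene, for the 3 classes of BAF exchange genes, the other BAF and regulator lists, and 4 marker lists, with a black bar at each median (no value added before the logarithm). The other BAF subunits span -0.26 to 0.55, the postmitotic neuron markers -0.11 to 2.73 and the radial glia markers -2.58 to -1.11.

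Beside the markers, the neuronal subunit genes lay within the range of the postmitotic neuron markers. That range, -0.11 to 2.73 in log2 ratio, includes equality. Phf10 at 0.05, Smarca2 at 0.74 and Smarca4 at 0.13 lay within it too. The progenitor subunit genes lay above all 10 radial glia markers. The log2 ratios of the radial glia markers ended at -1.11 (no value added), and the lowest progenitor subunit ratio was that of Ss18 at -0.58. The intermediate progenitor markers did overlap the progenitor subunit genes, with Insm1 at -0.31 and Elavl4 at -0.49, both picked out after their values were seen, beside -0.31 for Dpf2 and -0.36 for Actl6a. Of the postmitotic neuron markers, the largest differences were those of a pair of neurofilament genes. Nefl was at 16.7 CPM in neurons and 2.52 CPM in NPCs. Nefm, its partner in the filament, was at 69.4 CPM in neurons and 17.98 CPM in NPCs. Mki67, the proliferation gene, had the largest difference of the dividing cell markers, at 241 CPM in neurons and 829 CPM in NPCs. Hes1, a Notch target, had the largest of the radial glia markers, at 1.80 CPM in neurons and 10.8 CPM in NPCs.

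Genes most like Actl6b and Actl6a were sought among genes of similar level (at least 10 CPM in a library and a summed level within 1.5 times), by the smallest difference in log2 ratio with 1 CPM added. Predicted, Riken and small RNA symbols were left out. With 2 libraries this compares a single ratio. For Actl6b the nearest of 2546 genes were Dnajc6, Lrrc7 and Cnih2, with ratios of 2.31, 2.34 and 2.32, and 36 genes lay within 0.1 of it on the log2 scale. For Actl6a the nearest of 2490 were Tbl1x, Gabpa and Zc3hav1l, with ratios of 0.780, 0.782 and 0.779, and 226 genes lay within 0.1.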

How the data were processed

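RNA-seq values of 2 libraries were used. Per the submitters' processing notes, CASAVA 1.9, TopHat 1.2.0, SAMtools 0.1.18, edgeR (no version) and build mm9 were used, with no role or order given; the counting rule is not given in the sources used here, and the same holds for strand and annotation. The deposited values are a signal per gene on the scale of reads. Low values lie at even steps, the form of reads rescaled between libraries, but no source used here states the scaling and the sums of the libraries differ. Values were divided by each library's step (1.13 for neurons, 0.953 for NPCs), which gave whole reads within 0.05 for 99.9% and 100% of values; values under 0.01 were taken as 0. The design had been written for either form of value. CPM were the deposited values over the mean of the 2 libraries' sums, times 1000000, so that 1 CPM is 22.8 neuron reads or 27.0 NPC reads, and 3 reads are 0.132 or 0.111 CPM.

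Intervals are exact Clopper-Pearson (scipy 1.17.1) for ratios and exact conditional for pairs of genes. No molecular identifiers are named, so reads need not be separate molecules. A count model cannot be fitted with 1 library per group. The calculations were tested on simulated data. Scaling alternatives used edgeR 4.0.16 and DESeq2 1.42.0. Lengths came from the longest complete coding GENCODE M21 transcript. Bicral, Srcap and the 11 microRNA symbols were not matched. Coordinates of genes are not printed, because the build differs. The 10 members and the lists were chosen with earlier results of these data known. By rule the text names all members, any gene of the BAF subunit and regulator lists (with values for those past 2-fold and the 3 with the largest log2 ratios), up to 2 genes with the largest ratios of each other list, Nes, Dcx, and the 3 genes nearest to Actl6b and to Actl6a. Rbfox3, Reln, Ebf2, Kat5, Actr5, Actr8, Insm1, Elavl4, the globin genes and those given in the closing observations were picked out after their values were seen.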

Additional observations from a re-analysis of the deposited data

How the results depend on the processing

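No paired analysis was possible because each group has 1 library, and for the same reason no replicate could be left out. Over 4 other scalings and with 1 CPM added, 49 of 50 member ratios kept their direction. A scaling cannot move a ratio within a pair; with 1 CPM added, the 7 pairs ran from 1.52 to 2.99. The exception was Phf10, at 0.9895 with scaling by total reads. With that scaling Smarca2 was at 1.59, Smarca4 at 1.04 and the median log2 ratio of the other BAF subunits at 0.028. The count of 2 members at least 2-fold higher in neurons became 5 at 1.5-fold, where 1346 genes were higher in neurons and 1659 in NPCs. At 2-fold these gene counts were 489 and 854, with 5 CPM added 238 and 399, and with a filter at 10 CPM 548 genes were higher in NPCs. With coding in place of transcript length, the level of the first over the second gene became, in neurons and NPCs, 1.30 and 0.436 for Actl6b and Actl6a, 4.28 and 1.82 for Dpf1 and Phf10, 1.76 and 0.581 for Dpf1 and Dpf2, 2.77 and 1.15 for Ss18l1 and Ss18, and 0.284 and 0.186 for Smarca2 and Smarca4. Which transcripts were present was not measured. Depth limits Dpf3 most.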

Other observations

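The BAF subunits outside the exchange described above also come in alternative forms, and 4 such pairs were chosen after their values were seen. Smarcc2 (BAF170) was at 799 CPM in neurons and 706 CPM in NPCs, and Smarcc1 (BAF155) at 363 CPM in neurons and 403 CPM in NPCs, so that the ratio of Smarcc2 to Smarcc1 was 1.26 times as high in neurons (95% counting interval 1.21 to 1.30). For Smarcd3 over Smarcd1, both BAF60 subunits, the ratio was 1.35 times as high in neurons (1.27 to 1.44). For Arid1b over Arid1a, which define canonical BAF, it was 1.15 times as high (1.10 to 1.21), and for Bcl11b over Bcl11a 1.13 times (1.09 to 1.17). These 4 shifts were smaller than those of the 7 pairs of exchanged subunits and ATPases, but this holds only for the partners chosen. Smarcd2, another BAF60 gene, was lower in neurons, at 23.4 CPM in neurons and 27.2 CPM in NPCs, a ratio of 0.863 (0.770 to 0.966). Smarcd3 had a ratio of 1.42. By these 2 ratios its shift against Smarcd2, for which no interval was computed, exceeded the 1.53 of Smarca2 over Smarca4. A shift of that size was therefore not particular to the exchanged subunits and ATPases.

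Arid2, Pbrm1 and Brd7, which mark the PBAF form of the complex to which Phf10 also belongs, were chosen after their values were seen too. Arid2 was at 269 CPM in neurons and 321 CPM in NPCs, a ratio of 0.837 (0.810 to 0.865). Pbrm1 was at 333 CPM in neurons and 399 CPM in NPCs, a ratio of 0.834 (0.810 to 0.859), and these were the 2 lowest ratios among the 20 other BAF subunit genes. Brd7 was at 85.1 CPM in neurons and 87.9 CPM in NPCs, a ratio of 0.968 (0.911 to 1.03), with no difference detectable beyond counting error.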
